A study of Mus musculus with 6 samples.

Results

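Collagens, laminins and the glycoproteins that bind them were examined in C2AS12 cells (mouse myoblasts of the C2 lineage) as p300 and the culture medium were varied. The genes were those whose symbol in the array's probe annotation names a collagen chain, a laminin chain, a nidogen, a fibulin, a fibrillin, a thrombospondin, a lysyl oxidase, elastin, fibronectin, tenascin C, versican, Sparc or periostin. They numbered 55 of the 8251 genes with a probe set of a single symbol, and the probe set with the highest mean signal stood for each. Total RNA had been hybridised to 6 oligonucleotide arrays, 1 for each treatment and time. All cells carried an adenovirus for p300, a histone acetyltransferase that serves as a transcriptional coactivator. The treatments were wild-type p300 (Adp300wt), the same virus with doxycycline (Adp300wt + Dox) and mutant p300 (Adp300mut). Cells were collected at 0 h, with infection done but no differentiation medium added, and after 24 h of that low-serum medium. By the description of the series, cells with wild-type p300 survived, and those with doxycycline or mutant p300 went into apoptotic death. The mutation, the promoter of the transgenes, the action of doxycycline in these cells and whether an array holds 1 culture or a pool are not stated in the labels. Every array had virus, and every 24 h array had the new medium, so the effects of medium and of hours in culture cannot be told apart.

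The extracellular matrix around muscle cells has an interstitial part of fibrillar collagens and a basement membrane of laminin and collagen IV networks, which nidogens link. Collagen VI forms beaded filaments at the border of both and is built from 3 different chains, and loss of any of them is known to cause muscular dystrophy. Myoblasts read this matrix through integrins and dystroglycan, and versican and tenascin C are glycoproteins of the provisional matrix that is laid down in developing and regenerating muscle.

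The deposited values are array signals scaled to a common trimmed mean, which lay between 199.34 and 199.96 on the 6 arrays. The number of arrays limits the precision, and no treatment and time had a replicate. In the time test the spread was that of the change among the 3 treatments. In the outcome tests the doxycycline and mutant arrays were pooled as 1 outcome, so the spread includes any difference between these treatments. The spread behind every p-value is that of these samples alone, and part of it may be technical. Of the 55 genes, 34 had a mean signal at or above the median of all probe sets (75.2) and were tested with limma among 6212 probe sets. Log2 values were taken after setting signals under 16.4 (the 25th percentile of all values) to that floor, and a gene was called at a Benjamini-Hochberg adjusted p under 0.05 over all probe sets. Where 3 signals are given for a time, they stand in the order wild type, doxycycline, mutant. Of 9 myoblast markers on the array, 8 passed the signal filter, among them Myod1 (419.1 to 813.0) and Des (264.6 to 496.3). The actin 3′ to 5′ ratio, which grows as RNA degrades, was 1.33 at 24 h with wild-type p300 and 1.45 and 1.49 with doxycycline and mutant p300, against 1.30 to 1.34 at 0 h. The spike-in controls stood at -0.18 on the log2 scale (relative to the mean of the 6 arrays) at 24 h with wild-type p300 and at 0.13 and 0.23 in the other arrays of that time. Their part in the results was not tested.

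Over 24 h in differentiation medium, matrix genes rose more often than they fell. By limma with treatment as a block, 7 of 34 (20.6%) rose, against 7.24% of all probe sets tested, and 1 fell, against 9% of all. In either direction 8 of 34 (23.5%) were called, against 16.2% of all, and 12 had an unadjusted p under 0.05, beside 31.5% of all. Those that rose were Tnc, Nid2, Col6a1, Col3a1, Col6a2, Thbs2 and Col4a2, and Fbln1 fell. The median change of the 34 genes was 0.20 on the log2 scale, beside 0.00 for all probe sets, and 19 of 34 were higher at 24 h in all 3 treatments, beside 25.5% of all, while 3 of 34 were lower in all 3, beside 25.7%. In the wild-type cells the median change was 0.14, with doxycycline 0.23 and with mutant p300 0.21. The count that rose was 4 without the doxycycline or the mutant array of either time, beside 2.8% to 3.99% of all probe sets, and 8 without either wild-type array, beside 9.18% and 9.93%. Scaling to the spike-in controls, which lowered the median change of all probe sets by 0.12, left 4 (Tnc, Nid2, Col6a1 and Col3a1), beside 2.27% of all.

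**Figure D1:**
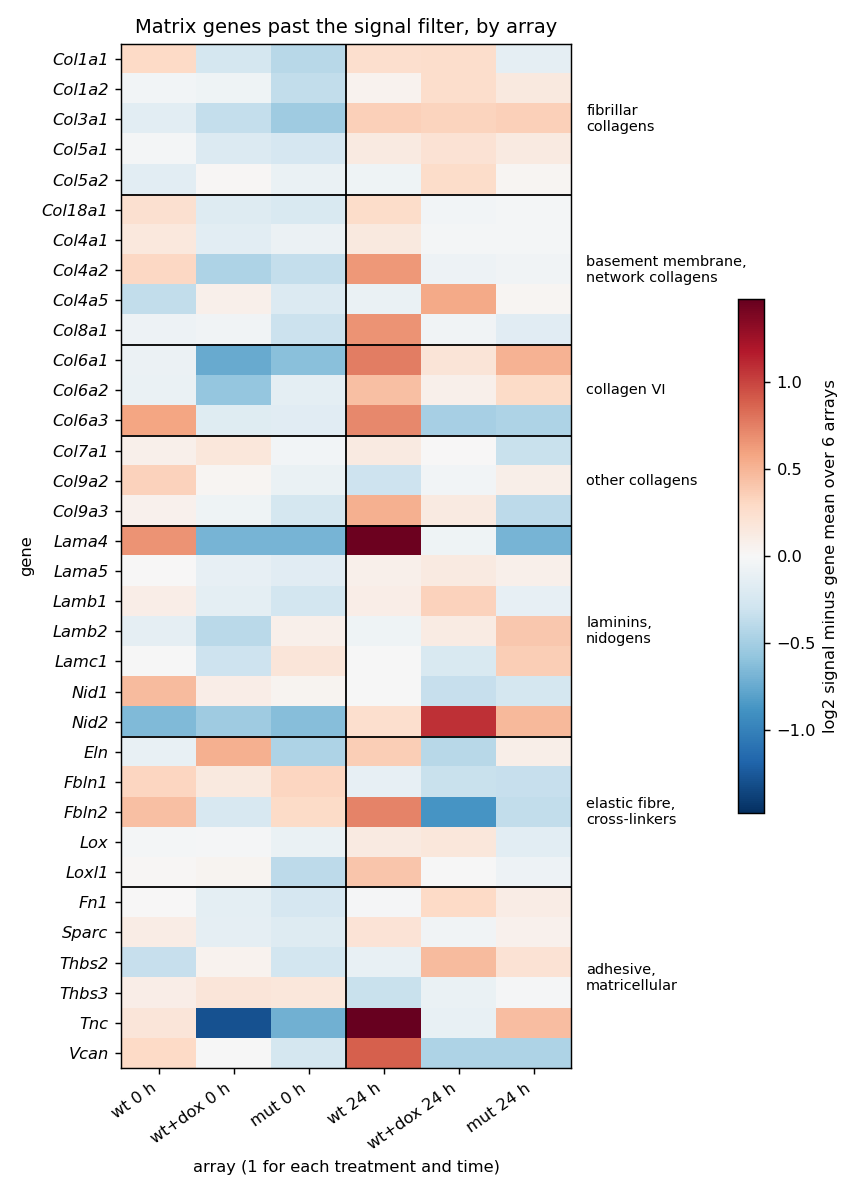
Log2 signal of the 34 matrix genes past the signal filter (rows, grouped by role) on the 6 arrays (columns), with each gene's mean over the arrays subtracted; red is above and blue below that mean. Tnc, Col6a1 and Nid2 are redder in the 24 h columns of every treatment, while Lama4, Col6a3 and Tnc are redder in both wild-type columns.

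**Figure D2:**
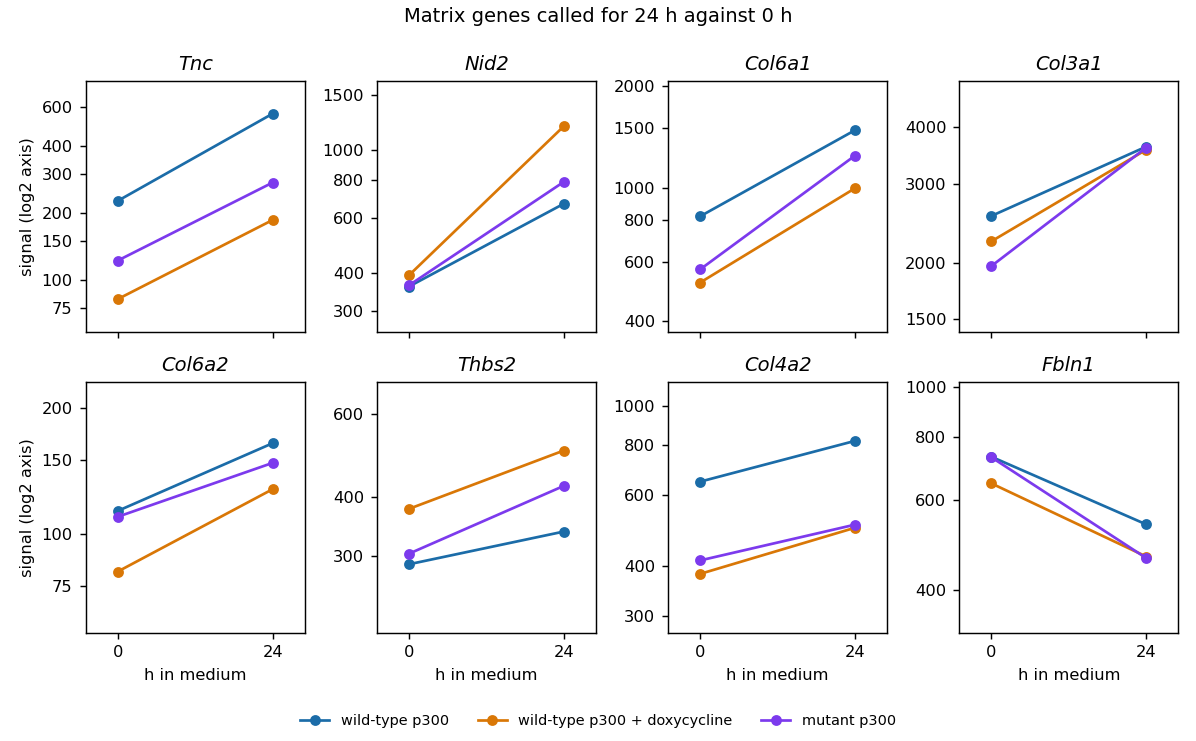
Array signal (log2 axis) at 0 h and 24 h in medium for the 8 matrix genes called over time by limma, with 1 point for each array and a line for each treatment. The 7 genes that rose climb in all 3 treatments, and Fbln1 declines in all 3.

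The cells that survived differed from those that died in a few matrix genes, all of them higher with wild-type p300. At 24 h limma called 2 of 34 genes (5.88%) higher with wild-type p300, Col6a3 and Vcan, against 0.724% of all probe sets, and 0 lower, against 0.0483% of all (0.773% in either direction). At an unadjusted p under 0.05 there were 7 genes, beside 11.5% of all. With a single array, the wild-type group was assumed to have the same spread as the doxycycline and mutant arrays. Over both times, with the arrays of a treatment taken as independent, 4 of 34 (11.8%) were called higher, against 0.499% of all, and 0 lower, against 0.0322% (0.531% in either direction), and 11 had an unadjusted p under 0.05, beside 13.7% of all. These 4 were Col6a3, Lama4, Tnc and Col4a2. Lama4 passed the signal filter only through its wild-type arrays, so its place in this count and in the 2-fold counts below is partly set by the filter. Without a test, the wild-type array stood at least 2-fold above both others at 24 h for 5 of 34 genes (14.7%), Lama4, Fbln2, Vcan, Tnc and Col6a3, against 1.3% of all probe sets. It stood at least 2-fold below both for 0, against 0.386% of all. At 0 h the same 2-fold rule held for 1 gene, Lama4, against 0.338% of all. In such bulk RNA, fewer cells of a type and less RNA per cell cannot be told apart.

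The difference at 24 h rested on single arrays. Both Col6a3 and Vcan were called in every fit that left out 1 array and still held the contrast, and the count then lay between 2 and 7, being 5 when the doxycycline or mutant array of 0 h was left out, 4 when the doxycycline array of 24 h was, and 7, with Nid2 among them as lower, when the mutant array at 24 h was left out. Calls over all probe sets went up as well in these fits, to between 2.59% and 5.65%. Without a variance trend limma called 0 at 24 h and 0 over both times, with 7 and 10 genes at an unadjusted p under 0.05. Scaling to the spike-in controls raised the median 24 h difference of all probe sets by 0.37, and 9 genes were then called, with 6.75% of all probe sets. Over both times, 0 were called without the wild-type array at 24 h (8 at an unadjusted p under 0.05), 2 when the wild-type array at 0 h was left out, 1 when the doxycycline array at 0 h was, and 2 when either mutant array was.

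At 0 h and in the interaction of outcome and time limma called 0 of 34 genes, and 0% of all probe sets in both. At an unadjusted p under 0.05 there were 8 genes at 0 h, beside 4.22% of all probe sets, and 2 in the interaction (Vcan and Fbln2), beside 3.17% of all. The wild-type array was the highest of its time for 22 of 34 genes at 0 h, against 32.1% of all probe sets, and for 19 of 34 at 24 h, against 28.4%. It was the lowest for 5 of 34 at 0 h and for 11 of 34 at 24 h, for which no share of all probe sets was counted. The doxycycline and mutant arrays, which share the outcome of death, stood at least 2-fold apart for 0 of 34 genes at either time, beside 0.998% of all probe sets at 0 h and 2.27% at 24 h. Their largest ratio was 1.97-fold for Eln at 0 h and 1.53-fold for Lama4 at 24 h, both higher with doxycycline, and no replicate array allows a test of it.

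**Figure D3:**
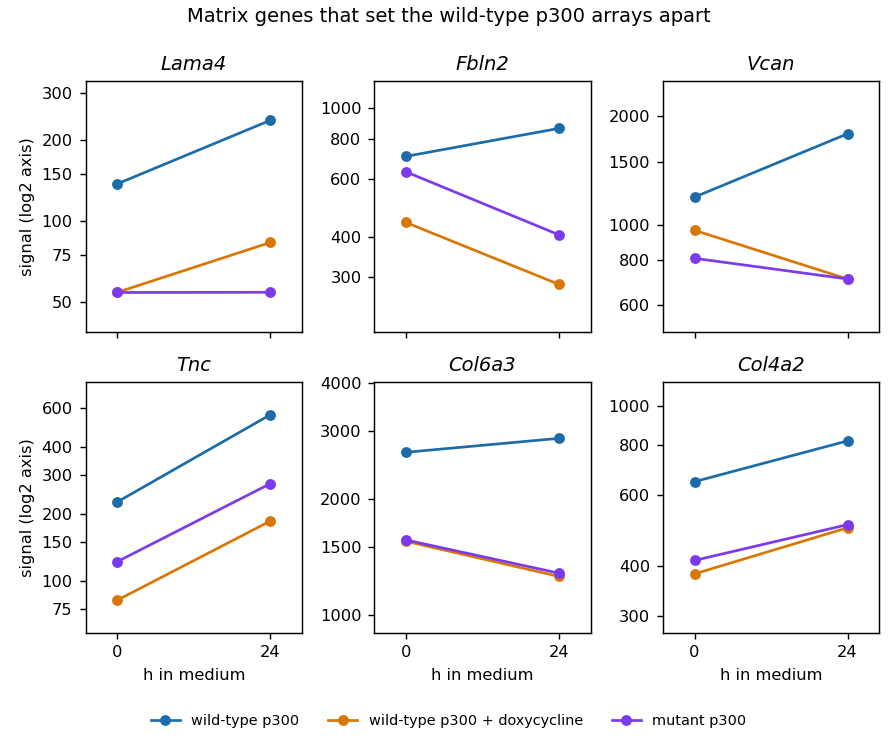
Array signal (log2 axis) at 0 h and 24 h for the 6 matrix genes called between outcomes or at least 2-fold higher with wild-type p300 at 24 h, with 1 point for each array. The wild-type line lies above both others at each time, and the doxycycline and mutant lines of Col6a3 nearly coincide.

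Of the collagen VI chains, Col6a1 and Col6a2 were called as rising over time, and Col6a3 as higher with wild-type p300. Col6a1, which encodes the alpha 1 chain, read 821.6 (wild type), 522.0 (doxycycline) and 571.3 (mutant) at 0 h, and 1481.5, 995.6 and 1244.9 at 24 h. All 3 arrays at 24 h exceeded all 3 at 0 h, and the rise was 0.97 ± 0.14 on the log2 scale (mean change of the 3 treatments; SD, n = 3; limma adjusted p = 0.000335). Another tested probe set of Col6a1 rose by 1.10 (limma adjusted p = 0.0030). Col6a2, which encodes the alpha 2 chain, read 113.5, 81.3 and 109.9 at 0 h and 164.7, 127.9 and 147.8 at 24 h in the same order. It rose by 0.54 ± 0.11, also without overlap, at an adjusted p of 0.049999, and the call was lost without any single array, with adjusted p between 0.0893 and 0.186. Col6a3, which encodes the large alpha 3 chain, read 2639.1, 1550.3 and 1562.7 at 0 h and 2868.4, 1256.7 and 1281.4 at 24 h. Its wild-type signal was 1.70-fold and 1.69-fold that with doxycycline and with mutant p300 at 0 h and 2.28-fold and 2.24-fold at 24 h. The log2 difference at 24 h was 1.18 ± 0.15 (limma SE; adjusted p = 0.0129), and over both times it was 0.97 ± 0.12 (adjusted p = 0.0132). Over time Col6a3 changed by 0.12 in the wild-type cells and by -0.30 and -0.29 with doxycycline and mutant p300, and it was not called (adjusted p = 0.378). For Col6a1 the difference between outcomes at 24 h was 0.41 ± 0.19 (adjusted p = 0.454) and for Col6a2 0.26 ± 0.30 (adjusted p = 0.82). Over both times the difference was 0.50 ± 0.12 for Col6a1 and 0.26 ± 0.20 for Col6a2, not called (limma adjusted p = 0.125 and 0.613). The other tested probe set of Col6a1 differed by 0.75 ± 0.26 at 24 h, also not called. Whether Col6a3 differed from the other chains was not tested.

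Versican and fibulin-2 were higher at 24 h than at 0 h with wild-type p300 and lower at 24 h with doxycycline or mutant p300, each in single arrays. Vcan, a large hyaluronan-binding proteoglycan, read 1195.4, 967.1 and 808.8 at 0 h in the same order, and 1791.1, 708.5 and 708.7 at 24 h. The wild-type array at 24 h was 2.53-fold above each of the others, a log2 difference of 1.34 ± 0.17 (limma SE; adjusted p = 0.0129). At 0 h the same difference was 0.43 ± 0.17 and was not called (adjusted p = 0.999). The interaction was 0.90 ± 0.25, with an unadjusted p of 0.00542 and an adjusted p of 1, so the change of the difference between times was not called. Fbln2, a glycoprotein that ties elastic fibres and basement membranes, read 707.1, 442.0 and 633.4 at 0 h and 862.8, 284.6 and 404.8 at 24 h. Its wild-type array at 24 h was 3.03-fold and 2.13-fold above the doxycycline and mutant arrays, with a log2 difference of 1.35 ± 0.27 that missed the threshold (adjusted p = 0.0732). The interaction for Fbln2 was 0.93 ± 0.38, with an unadjusted p of 0.0402 and an adjusted p of 1.

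Tnc, which encodes tenascin C, an adhesion-modulating glycoprotein, was called over time and, over both times, between outcomes. It read 226.9 (wild type), 82.4 (doxycycline) and 122.6 (mutant) at 0 h, and 557.6, 186.3 and 274.0 at 24 h. The 3 treatments changed by 1.30, 1.18 and 1.16 on the log2 scale, or 1.21 ± 0.07 (SD, n = 3; limma adjusted p = 0.000387). The wild-type array was the highest at each time, although the wild-type signal at 0 h lay between the doxycycline and mutant signals of 24 h. The difference over both times was 1.24 ± 0.21 (SE; adjusted p = 0.0456), and at 24 h it was 1.30 ± 0.32 (adjusted p = 0.135). That call over both times was lost with quantile normalization (limma adjusted p = 0.0581) and without the wild-type array at 0 h (0.134) or 24 h (0.916), the doxycycline array at 0 h (0.0789) or the mutant array at 24 h (0.0535). The rise over time was lost without the treatment block (0.129).

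The sequence before the transcription start is shown for the genes at least 2-fold higher with wild-type p300 at 24 h, as far as the RefSeq promoter table holds them: Vcan, Col6a3, Fbln2 and Tnc. Each window holds the 250 bases before the most upstream start of the gene in the table, on the strand of the gene, in build GRCm38.p6. The windows are chr13:89742513-89742762 (minus strand) for Vcan, chr1:90843972-90844221 (minus strand) for Col6a3, chr6:91212514-91212763 (plus strand) for Fbln2 and chr4:64047016-64047265 (minus strand) for Tnc. Capitals mark matches on either strand to the TATA box TATAAA, the CCAAT box CCAAT, the GC box GGGCGG, the AP-1 site TGANTCA or the E box CANNTG.
Vcan: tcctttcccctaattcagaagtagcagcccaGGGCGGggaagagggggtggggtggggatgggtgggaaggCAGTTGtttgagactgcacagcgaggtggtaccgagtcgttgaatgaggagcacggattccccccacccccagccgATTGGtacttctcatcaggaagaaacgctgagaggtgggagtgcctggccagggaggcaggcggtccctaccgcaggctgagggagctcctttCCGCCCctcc
Col6a3: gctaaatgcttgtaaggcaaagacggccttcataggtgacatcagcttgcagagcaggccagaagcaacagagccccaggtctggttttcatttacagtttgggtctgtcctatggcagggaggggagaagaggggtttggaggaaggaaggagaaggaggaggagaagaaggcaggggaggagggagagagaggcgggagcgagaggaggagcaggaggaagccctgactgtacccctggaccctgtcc
Fbln2: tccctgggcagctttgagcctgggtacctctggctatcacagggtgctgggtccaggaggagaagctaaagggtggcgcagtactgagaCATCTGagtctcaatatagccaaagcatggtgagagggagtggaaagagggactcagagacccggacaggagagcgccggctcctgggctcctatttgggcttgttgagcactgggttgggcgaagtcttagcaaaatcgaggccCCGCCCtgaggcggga
Tnc: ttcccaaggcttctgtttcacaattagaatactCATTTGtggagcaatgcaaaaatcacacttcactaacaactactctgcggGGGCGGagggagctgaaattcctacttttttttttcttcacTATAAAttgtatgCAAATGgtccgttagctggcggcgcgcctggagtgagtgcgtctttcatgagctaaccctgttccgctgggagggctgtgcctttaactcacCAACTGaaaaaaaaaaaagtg
Vcan held 2 GC boxes, 1 CCAAT box and 1 E box, Fbln2 1 GC box and 1 E box, and Tnc 1 TATA box, 1 GC box and 3 E boxes. None of the 5 motifs matched in the Col6a3 window, of which 57.2% was G or C. None of the matches in these windows overlap. Over the 43 promoter windows of the 36 genes of the family in the table, 20.9% held a TATA box, 32.6% a CCAAT box, 48.8% a GC box, 2.33% an AP-1 site and 62.8% an E box. Among all 32851 windows of the same length the shares were 12.4%, 33.8%, 32.7%, 6.75% and 66.2% in the same order. These matches describe letters only, and no binding was measured.

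Among basement membrane collagens, the alpha 2 chain of collagen IV differed between outcomes. Col4a2 read 647.8, 382.3 and 412.9 at 0 h and 817.9, 497.7 and 506.6 at 24 h in the same order. Both wild-type arrays lay above all 4 others. The difference over both times was 0.70 ± 0.11 on the log2 scale (SE; limma adjusted p = 0.0353), and at 24 h alone it was 0.70 ± 0.17 (adjusted p = 0.135). The call over both times was lost without either wild-type array (0.134 and 0.797), either mutant array (0.055 and 0.0685) or the doxycycline array at 0 h (0.0955). Col4a2 also rose over time by 0.34 ± 0.04 (SD, n = 3; adjusted p = 0.038), and that call was lost without any of the doxycycline or mutant arrays (adjusted p 0.146 to 0.166) and with scaling to the spike-in controls (0.649). Col4a1, its partner chain, read 475.4, 382.1 and 402.2 at 0 h and 469.4, 418.5 and 416.7 at 24 h. Its change over time was 0.05 ± 0.07 (adjusted p = 0.749) and its difference over both times 0.22 ± 0.11 (adjusted p = 0.427). The annotated starts of these genes lie on opposite strands, 21 bases apart in the RefSeq promoter table. Col4a5 read 89.9 to 121.2 at 0 h and 108.1 to 170.1 at 24 h, and Col18a1, the source of endostatin, 486.1 to 669.0 and 551.6 to 684.4, and neither was called. Col8a1, a network collagen chain, read 234.8, 237.9 and 198.2 at 0 h and 390.2, 239.3 and 220.5 at 24 h. Its 24 h value was high in the wild-type array alone, with a log2 difference of 0.76 ± 0.21 that was not called (adjusted p = 0.209).

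Among laminins and nidogens, 1 of 7 tested genes rose over time, beside 7.24% of all probe sets, and 1 was higher with wild-type p300 over both times, beside 0.499%. Nid2, a nidogen that links laminin and collagen IV networks, read 360.5, 392.0 and 363.8 at 0 h and 668.0, 1189.8 and 786.3 at 24 h. It rose by 1.20 ± 0.36 (SD, n = 3; limma adjusted p = 0.000841), without overlap between times, and was highest with doxycycline. Its probe set has a name ending in _s_at, which marks probes that may match more than 1 transcript. Nid1, the other nidogen, read 148.2 to 198.9 at 0 h and 113.7 to 143.9 at 24 h, with a change of -0.40 ± 0.09 that was not called (adjusted p = 0.0889). Lama4, a laminin alpha chain of muscle and vessel basement membranes, read 137.9, 54.4 and 54.3 at 0 h and 237.8, 83.4 and 54.4 at 24 h. The other probe set of Lama4 read 4.3 to 12, under the floor on all 6 arrays, and showed no difference. Both wild-type arrays exceeded all 4 others. Within each time, wild type stood above doxycycline and mutant by 2.53-fold and 2.54-fold at 0 h and by 2.85-fold and 4.37-fold at 24 h. The difference over both times was 1.58 ± 0.25 (SE; adjusted p = 0.0383), and at 24 h it was 1.82 ± 0.38 (adjusted p = 0.0833). The Lama4 call was lost without the wild-type array of 0 h (adjusted p = 0.101) or of 24 h (0.999), and also without doxycycline at 0 h (0.0669) and when the mutant array of 0 h was left out (0.055). Lama5, Lamb1, Lamb2 and Lamc1 were called in no test. The probe sets used for Lamb1 and Lamc1 have names ending in _f_at. The other probe set of Lamc1, with a plain name, read 6.3 to 23.8 and did not pass the filter. The differences of Lama5, Lamb1, Lamb2 and Lamc1 at 24 h were -0.03 ± 0.17, -0.01 ± 0.24, -0.32 ± 0.32 and -0.07 ± 0.30.

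No marker of endothelium, a cell type that also makes basement membrane, passed the signal filter. The summed signal of 7 such markers was 259, 140 and 91 at 24 h (wild type, doxycycline, mutant) and 149.8, 113.7 and 82.6 at 0 h in the same order. Of the 7, 3 lay under the floor on all arrays (Cdh5, Tie1 and Cd34). The high wild-type sum at 24 h rested on Tek, at 116.3 against 4 and 2.8, and without it the sums were 142.7, 136 and 88.2. Pecam1 read 70.8, 65.5 and 41.6 at that time and Vwf 22.1, 10.3 and 6.1, both highest with wild-type p300. Kdr read 24.8, 39.9 and 25.6, highest with doxycycline, though at 0 h it read 53.6, 23 and 14.8. Tie1 and Cd34, both under the floor, were not highest with wild-type p300 at 24 h. Cdh5, the VE-cadherin gene that defines this cell type, read 15.7, 4.3 and 4.1 at 24 h, all under the floor. The part of such cells in the differences was not tested.

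Of 5 fibrillar collagen genes tested, 1 was called over time, beside 16.2% of all probe sets. This was Col3a1, which encodes the collagen III chain. It read 2539.8, 2229.8 and 1964.2 at 0 h and 3623.7, 3566.9 and 3605.3 at 24 h, a rise of 0.69 ± 0.18 (SD, n = 3; limma adjusted p = 0.00323). The 3 treatments came to nearly the same signal at 24 h, and the difference between outcomes there was 0.02 ± 0.16 (SE; adjusted p = 0.986). Both other tested probe sets of Col3a1 rose as well, by 0.75 (adjusted p = 0.0018) and 0.49 (0.0394). Col1a2, a collagen I chain, read 4389.5, 4330.1 and 3505.0 at 0 h and 4697.7, 5416.6 and 5008.3 at 24 h, higher at 24 h without overlap, with a change of 0.31 ± 0.21 (adjusted p = 0.101). Col1a1, the other collagen I chain, read 113.5 to 184.7 at 0 h and 138.2 to 181.4 at 24 h, which overlap, with a change of 0.25 ± 0.28 (adjusted p = 0.319). Col5a1 and Col5a2, chains of collagen V, which sets fibril diameter, changed by 0.32 ± 0.14 (adjusted p = 0.0579) and 0.16 ± 0.09 (0.27). At 24 h the differences between outcomes were -0.15 ± 0.18 for Col1a2, 0.18 ± 0.27 for Col1a1, -0.05 ± 0.17 for Col5a1 and -0.21 ± 0.17 for Col5a2.

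Of the elastic fibre genes and cross-linkers, Fbln1 fell. This fibulin, a glycoprotein of elastic fibres and basement membranes, read 730.4, 647.8 and 728.7 at 0 h and 538.5, 465.9 and 462.7 at 24 h, a fall of 0.52 ± 0.12 (SD, n = 3; limma adjusted p = 0.00713). Its probe set has a name ending in _g_at, which marks a probe group shared by similar transcripts, and both other tested probe sets, at -0.21 each, were not called (adjusted p = 0.300 and 0.213). The call was also lost without either mutant array (0.0860 and 0.0821). Lox, the lysyl oxidase that cross-links collagen and elastin, read 706.4 to 749.0 at 0 h and 681.0 to 853.2 at 24 h, and changed by 0.10 ± 0.13 (adjusted p = 0.526). Loxl1 read 63.1 to 85.2 and 78.1 to 109.5, and Eln 58.5 to 115.2 and 60.3 to 103.0, and both overlapped between times. Of the fibril-associated and other collagens, Col7a1, Col9a2 and Col9a3 were tested and called in no comparison, with changes over time of -0.14 ± 0.17, -0.17 ± 0.42 and 0.18 ± 0.30.

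Among adhesive and matricellular proteins outside Tnc and Vcan, Thbs2 was called. This thrombospondin, an inhibitor of angiogenesis, read 287.4, 377.3 and 302.7 at 0 h and 337.5, 502.6 and 422.4 at 24 h, so the times overlapped while each treatment went up. It rose by 0.38 ± 0.13 (SD, n = 3; limma adjusted p = 0.0419), and the call was lost without any of the doxycycline or mutant arrays (adjusted p 0.150 to 0.240) and with scaling to the spike-in controls (0.565). Thbs3 read 143.3 to 152.2 at 0 h and 106.8 to 132.0 at 24 h, lower without overlap, at -0.30 ± 0.12 (adjusted p = 0.213). Fn1, fibronectin, read 854.6, 769.6 and 714.5 at 0 h and 836.2, 1042.2 and 914.5 at 24 h. Its change was -0.03 in wild-type cells, 0.44 with doxycycline and 0.36 with mutant p300 (adjusted p = 0.158). Sparc, a collagen-binding matricellular protein, read 2103.8 to 2593.9 at 0 h and 2320.9 to 2774.9 at 24 h and was not called in time (0.14 ± 0.10; adjusted p = 0.331) or at 24 h (0.20 ± 0.16; adjusted p = 0.707).

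**Figure D4:**
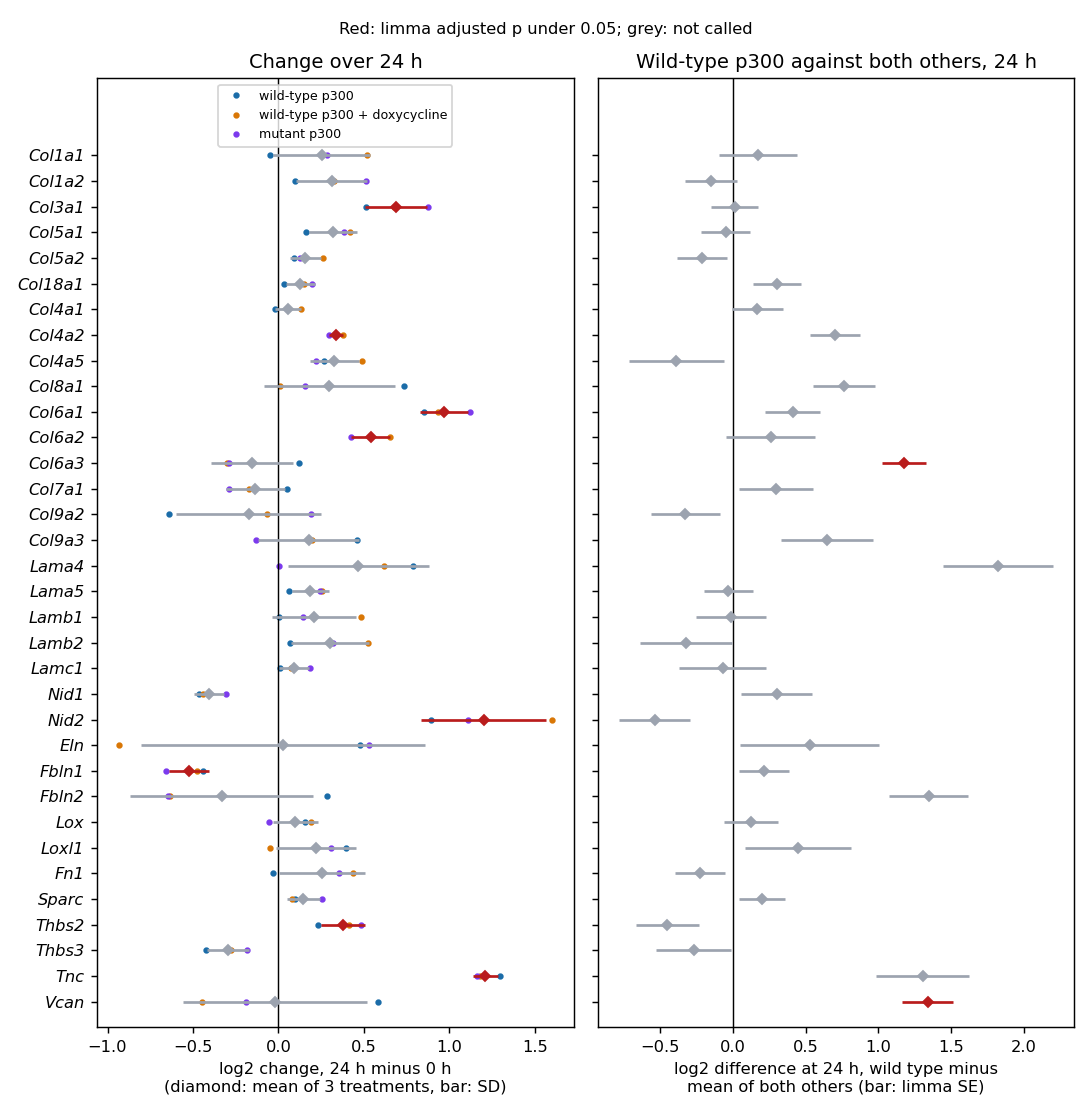
Left: log2 change from 0 h to 24 h for each of the 34 genes, with small points for the 3 treatments and a diamond and bar for their mean and SD. Right: log2 difference at 24 h between the wild-type array and the mean of both others, with the limma SE; red marks adjusted p under 0.05, which Col6a3 and Vcan reach on the right and 8 genes on the left.

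Of the 55 genes, 21 lay under the signal filter and were not tested in the main fit: Col2a1, Col4a3, Col4a4, Col9a1, Col10a1, Col11a1, Col11a2, Col12a1, Col13a1, Col14a1, Col15a1, Col17a1, Col19a1, Col22a1, Col26a1, Fbn2, Lama1, Lama2, Lama3, Lamb3 and Postn. Of these, Col4a3, Col4a4 and Col22a1 were under the floor of 16.4 on all 6 arrays. Postn, periostin, a matricellular protein of wounds and regenerating muscle, read 12.5, 14 and 15 at 0 h in the same order, all under the floor, and 106.5, 67.5 and 41.4 at 24 h. It was thus at least 6.49-fold, 4.12-fold and 2.52-fold higher at 24 h. Col11a1, a minor fibrillar chain, read 35.1, 69.0 and 49.4 at 0 h and 88.6, 117.8 and 77.2 at 24 h, without overlap. Neither was tested in the main fit. With the filter at the 25th percentile both were among 7 of 47 genes called as rising by limma, beside 4.29% of all probe sets. The 0 h values of Postn were then all set to the floor, and it passed that filter only through its 24 h arrays. Its call as rising is thus partly set by the filter and gives no independent support. Col6a2 and Thbs2 were not called in that setting.

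In 3 lists of other matrix genes, some past the signal filter rose over time and none past it fell. Limma called 0 of them between outcomes at 24 h or over both times. In the processing, receptor and remaining lists, 13, 14 and 12 of the 13, 19 and 24 genes on the array passed that filter. At an unadjusted p under 0.05 the 24 h difference held 2, 2 and 6 genes of the processing, receptor and remaining lists, and the difference over both times 0, 3 and 3. Of all probe sets, 7.24% rose and 9% fell over time, and 11.5% and 13.7% had such an unadjusted p in these outcome tests. Of the genes with such a p at 24 h, Pcolce, Mia3, Sdc2, Ogn, Ltbp3 and Hspg2 were lower with wild-type p300. Cd47, Mfap5, Ltbp1 and Matn2 were higher. Of 13 enzymes and chaperones that process collagen, 1 rose and 0 fell over time, Bmp1, the procollagen C-proteinase, by 0.45 ± 0.13 (SD, n = 3; limma adjusted p = 0.019). Serpinh1, the collagen chaperone HSP47, changed by 0.14 ± 0.14 (adjusted p = 0.348). Of 14 matrix receptors, 5 rose and 0 fell, among them Sdc2, a heparan sulfate proteoglycan, by 1.24 ± 0.40 (adjusted p = 0.000893), and Dag1, dystroglycan, the laminin receptor of muscle, by 0.59 ± 0.25 (0.0087). The others were Itgb5, Itga7 and Ddr1, a collagen receptor, with rises of 0.58, 0.50 and 0.38. Itga6, a receptor under the filter, read 117.5, 93.8 and 100.7 at 0 h and 47.8, 29.6 and 33.3 at 24 h. Ccn2 of the remaining list, also under the filter, was likewise lower at 24 h in all 3 treatments, while Lum was higher in all 3. These genes were not tested. Of 12 other matrix glycoproteins and proteoglycans, 5 rose and 0 fell (Dcn, Ogn, Mfap5, Ccn4 and Matn2). Mfap5, a microfibril protein, read 158.6, 108.7 and 59.9 at 0 h and 452.7, 161.1 and 112.7 at 24 h in the same order. Its difference of 1.75 ± 0.38 (limma SE) at 24 h was not called. Ogn read 579.2, 1001.1 and 667.7 at 0 h and 1587.4, 3110.7 and 2911.6 at 24 h. Its difference at 24 h, lower with wild-type p300, was -0.92 ± 0.23 and was not called either. The median change over time was -0.03 for the collagen-processing list, 0.25 for the receptors and 0.39 for the other matrix genes.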

How the data were processed

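Array signals of 12488 probe sets were taken as deposited by the authors, in linear intensity units. MAS5 is named in the submitters' processing notes, with no version or settings. Control probe sets (66) were left out of the tests. Gene symbols came from the array's probe annotation, and promoter sequences from RefSeq (GRCm38.p6). Signals under the 25th percentile of all values (16.4) were raised to that floor before the log2 step. Probe sets with a mean signal at or above the median (75.2) were tested, 6212 in all, with limma 3.58.1 in R 4.3.3 (variance trend, 2-sided). The time fit had treatment as a block (2 residual degrees of freedom). The outcome fit had 1 mean for each outcome and time (2), and the fit over both times had time as a term (3). The code was tested on simulated data.

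The members, the 3 lists of other matrix genes and the rules were chosen with earlier results of these data known. Values on all 6 arrays were to be printed for genes called between outcomes, called over time (up to 8 in each direction), or with a wild-type signal at least 2-fold from both others at 24 h, and for partner chains, Fn1, Sparc, Lox and Postn; ranges replace them where a gene was not called. Alternatives changed the floor, filter, variance trend, scaling, probe set and block, and left out each array.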

Additional observations from a re-analysis of the deposited data

How the results depend on the processing

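No called gene and no gene named for a 2-fold difference changed direction under any alternative. Of 34 genes tested, 7 rose over time. That count was 0 of 55 without the filter (14 at an unadjusted p under 0.05, by limma), 4 with scaling to the spike-in controls, 3 without the treatment block, and 4 to 8 with 1 array left out, while 7.24% of all probe sets rose, then 0%, 2.27%, 3.3% and 2.8% to 9.93%. The 1 gene that fell became 0 without the filter (3 at an unadjusted p under 0.05) and 0 with the mean of the tested probe sets (2). It became 0 with plain _at probe sets only (1), and 0 to 2 with 1 array left out. Of all probe sets 9% fell, then 0%, 9.9%, 9.09% and 4.72% to 10.7%.

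The 2 genes called between outcomes at 24 h became 1 without the filter, 0 with the 25th percentile filter (9 at an unadjusted p under 0.05), 0 without a variance trend (7), 9 with scaling to the spike-in controls, and 2 to 7 with 1 array left out. Over all probe sets the share called was 0.773%, then 1.55% without the filter (beside 1 of 55 genes) and 0% with the 25th percentile filter. It was 0.177% without a variance trend, 6.75% with spike-in scaling and 0.724% to 5.65% with 1 array left out. At 0 h, 2 genes in place of 0 were called without the filter, beside 1.01% of all probe sets. With 1 array left out there were 0 to 3, beside 0% to 0.612%. In the interaction 2 in place of 0 were called without the filter, beside 1.97% of all. With a doxycycline or mutant array left out there were 0 (1 to 4 at an unadjusted p under 0.05), beside 0.0966% to 0.692%. Those called without the filter were Col15a1 and Lama3 in both cases, whose other 5 arrays lay at the floor. The 4 genes called over both times became 0 without the filter (11 at an unadjusted p under 0.05), 0 without a variance trend (10), 7 with scaling to the spike-in controls (3.82% of all probe sets, against 0.531%), and 0 to 4 with 1 array left out (0% to 0.805%). Without the filter 0.0805% of all probe sets were called over both times, and without a variance trend 0.0161%. Apart from the removal of arrays or probe sets, the cause was not tested. Of the values of single genes under alternatives, 181 stayed on their side of the threshold, 66 lost the call and 14 gained it. No paired analysis by replicate number was possible because the labels give no replicate numbers. Without replicate arrays, signals near the floor of 16.4 limit what can be said of the 21 genes under the filter.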
